A study of Cricetulus griseus with 24 samples.

Results

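Stationary cultures of CHO-S cells were compared with exponentially growing cultures of the same line by RNA sequencing. The members were chosen by title: the 3 CHO-S libraries named NDST with the suffix STA stood against the 3 with the suffix EXP, which together made 6 of the 24 libraries of the series. CHO-S is a Chinese hamster ovary line that makes no antibody and served as the negative control of the series. The other libraries came from A0, an antibody-producing clone of CHO DG44 cells, and from A1, its progeny amplified with methotrexate, each also in exponential (8 and 3 libraries) and stationary phase (4 and 3 libraries). No drug or other agent is labelled for CHO-S, so growth phase was the only labelled difference between the groups, called EXP and STA from here on. The study's methods describe triplicate batch suspension cultures, while the labels number the libraries without saying that each is a separate culture, so the p-values measure the spread between these libraries.

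In batch culture, cells divide quickly while glucose, glutamine and other nutrients last, and stop dividing as nutrients run down and lactate and ammonium build up. Growing cells hold high levels of mRNA for DNA replication, mitosis and ribosome production, while cells short of amino acids, oxygen or folding capacity turn on the Atf4, hypoxia and unfolded protein programmes. CHO cells are the main hosts for therapeutic proteins, and much of a production culture is spent after fast growth has ended.

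The reads assigned to genes numbered 14652646, 12449462 and 13624319 in EXP replicates 1 to 3 and 1038026, 14290792 and 7516854 in STA replicates 1 to 3. The next library had 7.24 times as many counts as STA replicate 1, the shallow library. The shallow library also differed in kind: 32.8% of its reads fell outside genes, against 17.2% to 18.2% in the other 5, and 12792 genes were detected in it, against 15923 to 16891. Pearson's r between log2(CPM + 1) values over 10328 genes, where CPM is TMM-normalised counts scaled to 1e6 per library, was 0.996 between STA replicates 2 and 3 and 0.865 and 0.869 between STA replicate 1 and these. Of 2544 genes for which at least 100 counts were expected in the shallow library, 219 lay over 2-fold above and 387 over 2-fold below the mean of the other STA libraries, a gap that 0 of these genes showed between STA replicates 2 and 3. Ppig, a splicing-associated prolyl isomerase, had 1820.5 CPM in it against 215 and 205 CPM. What set this library apart was not tested. Calls and fold changes are therefore given with it, in a fit of 6 libraries, and without it, in a fit of 5 libraries.

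**Figure D1:**
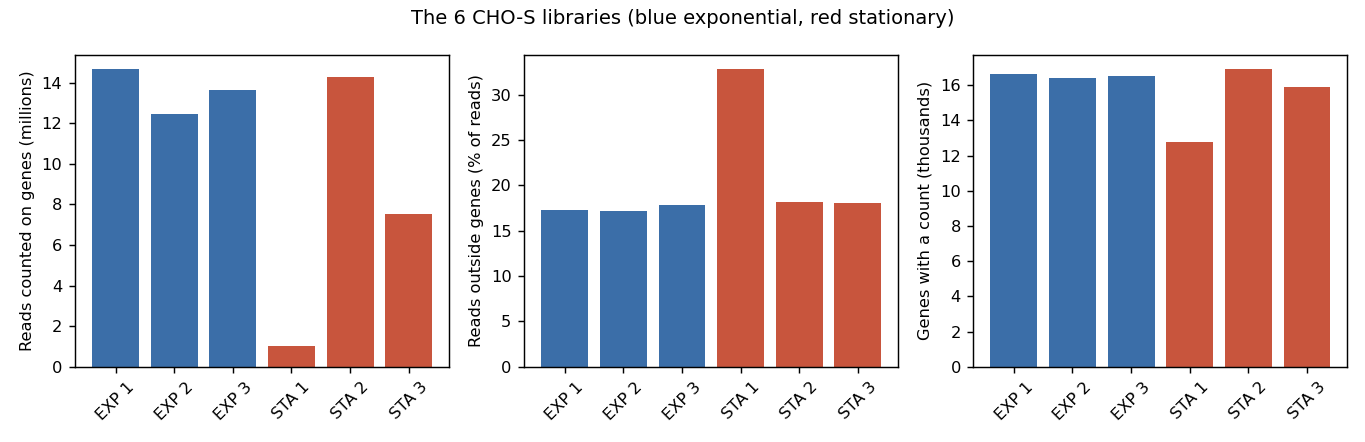
Bars show, for the 6 CHO-S libraries (blue exponential, red stationary), the reads counted on genes, the percent of reads outside genes and the number of genes with a count. STA 1 had 1038026 gene counts and 32.8% of its reads outside genes, against at most 18.2% in the other 5 libraries.

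The STA libraries matched their labelled line. Genes that mark a line were taken from the exponential libraries, at 20 CPM or more in the line and under 0.5 CPM in the others. The 7 genes so found for CHO-S summed to 173 to 175 CPM in EXP, which chose them, and to 156, 168 and 169 CPM in STA replicates 1 to 3, which did not. The 17 genes found for A0 and A1 together summed to 2.89, 1.75 and 1.86 CPM in STA replicates 1 to 3. They summed to 5549 and 8711 CPM in the first stationary library of A0 and of A1. Their low level in EXP, at most 1.43 CPM, was set by the choice of genes. For this and the next marker lists, 6.81% of all genes were called higher and 6.48% lower with 6 libraries. With 5 libraries these shares were 23.1% and 24.7%. Of 10 mesenchymal markers 7 were tested. S100a4, Zeb1 and Fn1 were higher in both fits, and Pdgfra and Pdgfrb higher and Vim lower with 5 libraries only. Fn1 had the highest counts per library, and the summed level was 3657, 3769 and 3724 CPM in EXP and 3899.7, 5423 and 5656 CPM in STA. Epithelial markers were close to absent: Cdh1 had 1 or 2 counts in each EXP library and 0 in each STA library, and the 3 tested of 10 markers summed to 9.21 to 19.2 CPM, nearly all from Muc1, which was called higher in both fits. CHO cells stem from the hamster ovary, yet only 4 of 9 granulosa and steroidogenic markers were tested. Of these, Inha, Amh and Nr5a1 had at most 2.29 CPM in any of the 6 libraries. Only Star, which carries cholesterol into mitochondria, was higher, in both fits, at 33.8, 28.8 and 30.3 CPM in EXP and 53.2, 64.6 and 56.8 CPM in STA. Of 7 leukocyte markers 4 were tested, Ptprc and Tyrobp had too few counts, and Cd68, higher in both fits, made up nearly all of the summed level of the 4 tested, 3.97 to 4.61 CPM in EXP and 28.3 to 38.1 CPM in STA.

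In the 6-library fit, 2308 of 17367 genes passed an adjusted p of 0.05, 1182 higher in STA (6.81% of the genes tested) and 1126 lower (6.48%). In the 5-library fit, 8269 of 17319 genes passed, 3995 higher (23.1%) and 4274 lower (24.7%). All 2308 genes of the first fit were also called by the second, in the same direction, and 5961 more genes were called by the second alone. The median log2 fold change over all genes tested was 0.02 with 6 libraries and 0.003 with 5. The biological coefficient of variation was 0.186 with the shallow library and 0.0341 without it. That second value is small because the remaining libraries of a group were nearly alike, so the 5-library p-values rest on a narrow spread that 2 STA libraries can only partly show.

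How firmly a gene is called with the shallow library depended on all 6 libraries. With it kept, edgeR called 310, 0 and 282 genes without EXP replicate 1, 2 or 3, and 337 and 574 genes without STA replicate 2 or 3. For the count of 0, the smallest adjusted p was 0.0512 and 3471 genes had an unadjusted p under 0.05; over all 6 libraries DESeq2 called 2727 genes and limma-voom 2187. Of the 155 genes named by a rule below, 111 were called in the 6-library fit. Those 111 kept their direction without any 1 of the 6 libraries, and 39, 0 and 38 of them were still called without EXP replicate 1, 2 or 3, 42 and 57 without STA replicate 2 or 3, and 111 without the shallow library. Among the gene lists below, 0 to 18 members of the DNA replication list, 0 to 10 of the mitosis list, 0 to 9 of the hypoxia list and 0 to 5 of any other list were called in 1 direction when the shallow library was kept and another left out.

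The largest rises in STA, among genes called in both fits with a mean of at least 5 CPM and no overlap between groups, were led by Nppb (gene ID 100773766), which encodes a natriuretic peptide. It had 30.8, 21.5 and 26.1 CPM in EXP and 159, 266 and 279 CPM in STA. All 3 STA libraries lay far above all 3 EXP libraries, with a log2 fold change of 3.18 (SE 0.26, adjusted p = 0.00287) and 3.38 with 5 libraries. Aim2 (gene ID 100750381), a sensor of cytosolic DNA, had 1.98, 2.14 and 2.56 CPM in EXP and 39.1, 18.5 and 16.9 CPM in STA, a log2 fold change of 3.15 (SE 0.29, adjusted p = 0.00287) and 3.01 with 5 libraries. Cd68 (gene ID 100762586), a lysosomal membrane glycoprotein best known from macrophages, stood at 3.49, 3.42 and 3.66 CPM in EXP and 38.1, 27.5 and 28.8 CPM in STA. The 3 STA values were again high and close together, and Cd68 rose by 3.05 (SE 0.14, adjusted p = 4.06e-04) on the log2 scale, or 3.00 with 5 libraries. Gem (gene ID 100757029), a small GTPase, had 18.8, 11.2 and 14.4 CPM in EXP and 88.3, 115 and 78.6 CPM in STA, a log2 fold change of 2.67 (SE 0.24, adjusted p = 0.00287, 5 libraries 2.74). Cd82 (gene ID 100772417), a tetraspanin, stood at 6.495, 5.402 and 6.66 CPM in EXP and 14.04, 39.1 and 31.4 CPM in STA, lowest among STA in the shallow library, with a log2 fold change of 2.39 (SE 0.24, adjusted p = 0.00307, 5 libraries 2.54). The other 5 of the 10 largest rises were Bhlhe41, Bnip3, Dbp, Atf3 and Ddit3, described with their lists below. Aim2, Cd68, Dbp and Atf3 averaged under 5 CPM in EXP and passed the 5 CPM limit only through STA. In all, 722 of the 17367 genes tested met the criteria for a rise. Unnamed loci that ranked as high, 2 among the rises and 1 among the falls, were passed over.

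Ctgf (gene ID 100750810), which encodes a matrix-associated growth factor, had the largest fall under the same criteria, no overlap between groups included. It stood at 137, 163 and 128 CPM in EXP and 13.04, 19.7 and 26.7 CPM in STA. Its log2 fold change was -2.76 (SE 0.24, adjusted p = 0.00287) and -2.66 with 5 libraries. Phf19 (gene ID 100756504), a Polycomb-associated protein, had 37.6, 43.5 and 46.97 CPM in EXP and 5.02, 10.1 and 13.7 CPM in STA, and Ankle1 (gene ID 100753605), a nuclease with ankyrin repeats, 60.99, 60.2 and 74.5 CPM in EXP and 14.04, 17.1 and 18.5 CPM in STA. Both fell in all 3 STA libraries, by 1.96 and 1.93 on the log2 scale (SE 0.22 and 0.16, adjusted p = 0.00361 and 0.00287), with log2 fold changes of -1.89 and -1.88 with 5 libraries. Mybl2 (gene ID 100773251), a transcription factor of cycling cells, had 251, 261 and 272 CPM in EXP and 56.2, 83.7 and 91.1 CPM in STA, and its log2 fold change was -1.74 (SE 0.19, adjusted p = 0.00319, 5 libraries -1.58). Map3k6 (gene ID 100760135), a stress-activated kinase, had 46.8, 44.01 and 46.7 CPM in EXP and 7.02, 14.8 and 15.4 CPM in STA, and a log2 fold change of -1.71 (SE 0.19, adjusted p = 0.00328, 5 libraries -1.60). Dna2 (gene ID 100761842), a nuclease and helicase of DNA replication, had 28.3, 30.8 and 32.3 CPM in EXP and 8.02, 9.38 and 9.77 CPM in STA. In all these genes, chosen for having no overlap, the highest STA value lay far below the lowest EXP value. Nrg4 (gene ID 100757283), an EGF-family ligand, and Il17d (gene ID 100763580), a cytokine, were low but separate, Nrg4 at 8.82, 9.29 and 8.41 CPM in EXP and 3.01, 2.85 and 2.74 CPM in STA and Il17d at 12.99, 11.4 and 12.2 CPM in EXP and 2.01, 3.75 and 4.43 CPM in STA. Nrg4, Il17d and Ccne1 averaged under 5 CPM in STA and passed the 5 CPM limit only through EXP. Ccne1 and Mcm5 complete the 10 largest falls. Of the 17367 genes tested, 1018 met the criteria for a fall. With 5 libraries, the log2 fold changes of these 10 genes ran from -2.66 for Ctgf to -1.54 for Mcm5.

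**Figure D2:**
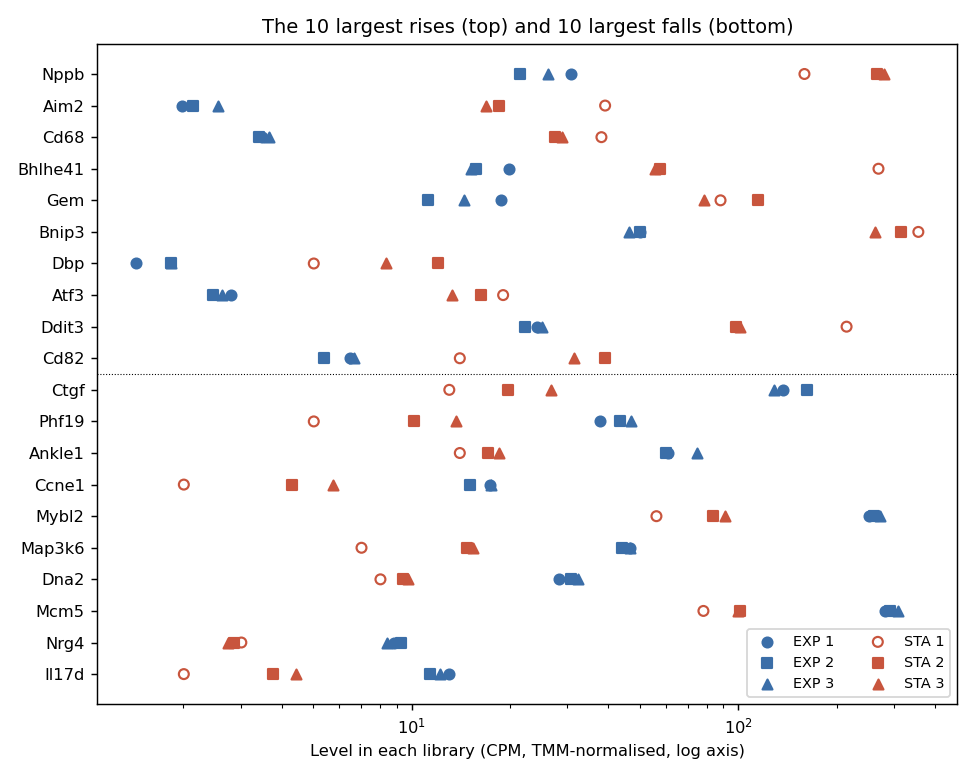
Each row of points gives the level of 1 gene in the 6 CHO-S libraries on a log axis of CPM (blue EXP, red STA, open circle the shallow library STA 1), with the 10 largest rises on top and the 10 largest falls below. All 20 genes were chosen for having no overlap between the groups. Bhlhe41 is the gene whose size depends most on STA 1, with 269 CPM there against 57.5 and 55.6 CPM in the other STA libraries.

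Genes of DNA replication and S phase were lower in stationary cells. Of 38 members tested, 31 were called in the 6-library fit, all of them lower (6.48% of all genes were called lower), with a median log2 fold change of -1.11 against 0.02 over all genes. In the 5-library fit all 38 were lower (24.7% of all genes), with a median of -1.13. Mcm5, a subunit of the replicative helicase, had 281, 292 and 309 CPM in EXP and 78.2, 101 and 99.8 CPM in STA. Its STA values lay far below its EXP values and varied little, and its log2 fold change was -1.65 (SE 0.15, adjusted p = 0.00287, 5 libraries -1.54). Pole, the catalytic subunit of DNA polymerase epsilon, had 101, 108 and 109 CPM in EXP and 26.1, 35.9 and 40.4 CPM in STA, and Ccne1, the cyclin E1 of entry into S phase, 17.4, 15.1 and 17.5 CPM in EXP and 2.01, 4.31 and 5.73 CPM in STA. Their log2 fold changes were -1.58 (SE 0.17, adjusted p = 0.00325, 5 libraries -1.48) and -1.83 (SE 0.18, adjusted p = 0.00296, 5 libraries -1.78). Pcna, the sliding clamp, was at 284, 272 and 252 CPM in EXP and 179.5, 111 and 112 CPM in STA, with the shallow library the highest of the STA group and still below EXP. E2f1, the transcription factor that drives many of these genes, moved less, at 50.3, 55.6 and 56.1 CPM in EXP and 30.1, 42.2 and 43.7 CPM in STA, a log2 fold change of -0.44 (SE 0.16, adjusted p = 0.122), and was called lower only with 5 libraries, at -0.33 (SE 0.07, adjusted p = 3.99e-05). Summed over the 38 genes, the level was 4854, 4792 and 4860.2 CPM in EXP and 2239, 2339 and 2334 CPM in STA. Members of the list still deviated in the shallow library, Pcna upwards and Ccne1 downwards. With the shallow library kept, 14, 0 and 14 members were called lower without EXP replicate 1, 2 or 3 and 15 and 18 without STA replicate 2 or 3. In bulk RNA, fewer cells in S phase and less of these mRNAs per cell cannot be told apart.

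Genes of mitosis and the kinetochore were also lower. In the 6-library fit 18 of 33 members were lower (6.48% of all genes) and 15 were not called, with a median of -0.67, and in the 5-library fit 32 of 33 were lower (24.7% of all genes), with a median of -0.82. The exception was Pttg1, the securin, at 50.8, 56.6 and 56.04 CPM in EXP and 18.1, 48.3 and 50.2 CPM in STA. Nuf2, a kinetochore protein, had 45.5, 41.9 and 41.7 CPM in EXP and 19.1, 13.1 and 17.5 CPM in STA and a log2 fold change of -1.46 (SE 0.16, adjusted p = 0.00344, 5 libraries -1.54). Bub1b, of the spindle checkpoint, had 221, 233 and 228 CPM in EXP and 100.3, 108 and 112 CPM in STA, and Ccnb1, the mitotic cyclin B1, 248, 252 and 241 CPM in EXP and 103, 143 and 149.8 CPM in STA. These fell by 1.09 and 0.89 on the log2 scale, with adjusted p of 0.00361 and 0.0145, and their log2 fold changes with 5 libraries were -1.04 and -0.75. For several long-known proliferation genes the shallow library lay in or near the EXP range instead. Mki67, the proliferation antigen, had 742, 731 and 801 CPM in EXP and 739, 387 and 408 CPM in STA, and Top2a, a topoisomerase, 1062, 1086 and 1101 CPM in EXP and 1042, 631 and 644 CPM in STA. Only STA replicates 2 and 3 were low, and Mki67 had a log2 fold change of -0.57 (SE 0.25, adjusted p = 0.172) with 6 libraries and -0.93 (SE 0.04, adjusted p = 8.35e-35) with 5. The summed level of the list was 7291, 7405 and 7602 CPM in EXP, 5852 CPM in the shallow library and 4317 and 4392 CPM in STA replicates 2 and 3. With the shallow library kept, 5, 0 and 3 members were called lower without EXP replicate 1, 2 or 3 and 7 and 10 without STA replicate 2 or 3.

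G1 cyclins, inhibitors of cyclin-dependent kinases and p53 targets went in both directions. Of 27 tested, 6 were higher (6.81% of all genes), 4 lower (6.48%) and 17 not called with 6 libraries. With 5, 13 were higher (23.1% of all genes) and 9 lower (24.7%). The medians were 0.23 and 0.06. Ccnd2, cyclin D2, had 206, 199 and 201 CPM in EXP and 806, 499 and 509 CPM in STA, and Btg2, an antiproliferative gene, 16.8, 13.8 and 16.3 CPM in EXP and 34.1, 50.9 and 40.7 CPM in STA. STA lay above EXP in every library, with log2 fold changes of 1.58 (SE 0.20, adjusted p = 0.00476, 5 libraries 1.33) and 1.47 (SE 0.16, adjusted p = 0.00361, 5 libraries 1.58). Gadd45a, a growth arrest gene that the table lists as LOC103159266, had 34.6, 30.8 and 34.02 CPM in EXP and 223, 84.2 and 82.1 CPM in STA, and a log2 fold change of 1.91 (SE 0.39, adjusted p = 0.0205) with 6 libraries that shrank to 1.34 with 5. The other higher members were Plk2, Btg1 and Rb1, and the 4 lower ones were Cdkn2c, Gas2, Cdk2 and Rbl1. Cdkn2c, an inhibitor of Cdk4 and Cdk6, had 72.6, 88.2 and 74.99 CPM in EXP and 30.1, 39.9 and 44.3 CPM in STA, a log2 fold change of -1.004 (SE 0.17, adjusted p = 0.0122, 5 libraries -0.91). Cdkn1a, the p21 inhibitor, stood at 193, 150.1 and 153 CPM in EXP and 124, 249 and 208 CPM in STA and was not called with 6 libraries, where its log2 fold change was 0.25 (SE 0.25, adjusted p = 0.562); with 5 it was 0.49 (SE 0.06, adjusted p = 2.89e-12). Cdkn1b, the p27 inhibitor, had 59.4, 64.98 and 62.4 CPM in EXP and 113, 58.7 and 56.3 CPM in STA, with adjusted p of 0.625 and 0.207. Ccnd1, cyclin D1, had 605, 583 and 607 CPM in EXP and 694, 891 and 935 CPM in STA, above EXP in all STA libraries, at 0.49 (SE 0.14, adjusted p = 0.0581) with 6 libraries and 0.61 (SE 0.04, adjusted p = 1.63e-25) with 5.

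Nucleolar ribosome biogenesis genes were lower in part. With 6 libraries 16 of 32 were called, all lower (6.48% of all genes), and 16 were not, with a median of -0.58. With 5, 30 were lower (24.7% of all genes) and 1 higher (23.1%), with a median of -0.64. Rrp12, a ribosome assembly factor, had 119, 124 and 126 CPM in EXP and 37.1, 46.4 and 54.1 CPM in STA, and Utp20, of the small subunit processome, 236, 241 and 242 CPM in EXP and 103, 99.1 and 106 CPM in STA. Both groups were tight and apart, with log2 fold changes of -1.39 (SE 0.16, adjusted p = 0.00389, 5 libraries -1.30) and -1.22 (SE 0.12, adjusted p = 0.00296, 5 libraries -1.22). Dkc1, the pseudouridine synthase dyskerin, had 271, 280.1 and 267 CPM in EXP and 169, 106 and 115 CPM in STA, a log2 fold change of -1.09 (SE 0.19, adjusted p = 0.0124, 5 libraries -1.30). Ncl, nucleolin, had 981, 953 and 967 CPM in EXP and 1256, 480.4 and 511 CPM in STA: it was halved in STA replicates 2 and 3 and above EXP in the shallow library, so that its log2 fold change was -0.38 (SE 0.35, adjusted p = 0.525) with 6 libraries and -0.96 with 5. The 1 higher gene with 5 libraries was Myc, which drives ribosome production and is listed as LOC100773301. It had 77.7, 87.3 and 83.5 CPM in EXP and 33.1, 100.2 and 99.7 CPM in STA; its log2 fold change was -0.03 (SE 0.34, adjusted p = 0.959) with 6 libraries and 0.28 (SE 0.06, adjusted p = 1.13e-05) with 5. Summed levels were 5649, 5694 and 5766 CPM in EXP and 5255, 3283 and 3409 CPM in STA, with the shallow library close to EXP. With the shallow library kept, 3, 0 and 2 members were called lower without EXP replicate 1, 2 or 3 and 4 and 5 without STA replicate 2 or 3.

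Part of the glycolytic genes were higher in stationary CHO-S cells. With 6 libraries 7 of 20 members were called, all higher (6.81% of all genes), and 13 were not, with a median of 0.62. With 5 libraries 18 were higher (23.1% of all genes) and 1 lower (24.7%), with a median of 0.77. Ldha, which turns pyruvate into lactate, had 1371, 1325 and 1386 CPM in EXP and 2346, 2773 and 2553 CPM in STA. The STA libraries lay at about double the EXP level, with a log2 fold change of 0.91 (SE 0.10, adjusted p = 0.00369) and 0.98 with 5 libraries. Gapdh had 5589, 5542 and 5567 CPM in EXP and 7118, 9908 and 7925 CPM in STA and Pfkp, a phosphofructokinase, 36.5, 34.5 and 36.1 CPM in EXP and 74.2, 97.02 and 83.9 CPM in STA. Both were higher in all STA libraries, with log2 fold changes of 0.58 (SE 0.13, adjusted p = 0.0268, 5 libraries 0.69) and 1.27 (SE 0.15, adjusted p = 0.00380, 5 libraries 1.36). Tpi1, triose phosphate isomerase, had 609, 616 and 633 CPM in EXP and 761, 1374 and 1212 CPM in STA, and a log2 fold change of 0.85 (SE 0.21, adjusted p = 0.0373) with 6 libraries and 1.07 with 5. Pfkfb4, Pfkfb3 and Hk1 were the other 3 called, although Pfkfb4 in the shallow library lay below every EXP library. Slc2a1, the glucose transporter Glut1, had 33.2, 27.2 and 32.5 CPM in EXP and 16.05, 54.4 and 44.3 CPM in STA, and hexokinase Hk2 38.6, 34.5 and 32.7 CPM in EXP and 30.1, 59.9 and 43.8 CPM in STA. In both, the shallow library was the lowest of the 6 and the other STA libraries the highest, and with 6 libraries neither was called (adjusted p = 0.385 and 0.272), while with 5 their log2 fold changes were 0.70 (SE 0.08, adjusted p = 4.70e-13) and 0.60 (SE 0.08, adjusted p = 1.84e-10). The 1 lower member was Slc16a1, a lactate transporter, at 415, 403 and 399 CPM in EXP and 526, 306 and 298 CPM in STA, with the shallow library above EXP. With the shallow library kept, 1, 0 and 1 members were called higher without EXP replicate 1, 2 or 3 and 2 without STA replicate 2 and also without STA replicate 3.

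Hypoxia-inducible genes were higher in part. With 6 libraries 12 of 22 were called, all higher (6.81% of all genes), and 10 were not, with a median of 0.98; with 5, 19 were higher (23.1% of all genes) and 1, Ddit4, lower (24.7%), with a median of 0.71. Bnip3, a receptor that targets mitochondria for autophagy, had 49.9, 49.96 and 46.2 CPM in EXP and 356, 314 and 262 CPM in STA. All STA values exceeded all EXP values more than 5-fold, with a log2 fold change of 2.67 (SE 0.16, adjusted p = 0.00134) and 2.58 with 5 libraries. Its relative Bnip3l had 86.3, 84.6 and 84.6 CPM in EXP and 256, 239 and 206 CPM in STA, and Ero1a, an oxidase of the endoplasmic reticulum, 114, 112 and 110.4 CPM in EXP and 302, 332 and 298 CPM in STA. Their log2 fold changes were 1.45 (SE 0.13, adjusted p = 0.00287, 5 libraries 1.40) and 1.47 (SE 0.12, adjusted p = 0.00287, 5 libraries 1.502). Egln1, an oxygen-sensing prolyl hydroxylase, had 32.5, 31.5 and 37.5 CPM in EXP and 58.2, 103 and 69.5 CPM in STA, Pdk1, which holds pyruvate back from the mitochondria, 11.4, 12.6 and 13.3 CPM in EXP and 24.1, 38.6 and 32.7 CPM in STA, and Loxl2, a lysyl oxidase, 15.2, 13.9 and 14.3 CPM in EXP and 32.1, 45.9 and 43.4 CPM in STA. No STA library overlapped EXP in these genes, and their log2 fold changes were 1.21 (SE 0.22, adjusted p = 0.0140, 5 libraries 1.40), 1.45 (SE 0.15, adjusted p = 0.00307, 5 libraries 1.55) and 1.54 (SE 0.14, adjusted p = 0.00287, 5 libraries 1.64). Vegfa, the angiogenic factor, behaved otherwise: it had 252, 197 and 238 CPM in EXP and 245, 286 and 271 CPM in STA, and its log2 fold change was 0.22 (SE 0.14, adjusted p = 0.347) with 6 libraries and 0.29 (SE 0.05, adjusted p = 6.84e-07) with 5. Summed levels were 2433, 2269 and 2255 CPM in EXP and 3856, 4134 and 3760.5 CPM in STA. With the shallow library kept, 7, 0 and 6 members were called higher without EXP replicate 1, 2 or 3 and 7 and 9 without STA replicate 2 or 3.

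The citric acid cycle and oxidative phosphorylation did not rise with glycolysis. With 6 libraries 2 of 20 members were called, both lower (6.48% of all genes): Ndufa9, of respiratory complex I, at 122, 130.03 and 123 CPM in EXP and 52.2, 80.3 and 80.3 CPM in STA, and Fh, fumarase, at 119, 112 and 106 CPM in EXP and 62.2, 76.4 and 76.2 CPM in STA. Their log2 fold changes were -0.79 (SE 0.18, adjusted p = 0.0298, 5 libraries -0.63) and -0.63 (SE 0.14, adjusted p = 0.0271, 5 libraries -0.55). With 5 libraries 13 were lower (24.7% of all genes) and 1, the NADP-dependent isocitrate dehydrogenase Idh2, higher (23.1%); the medians were -0.44 and -0.35. Cs, citrate synthase, had 193, 193 and 196 CPM in EXP and 123, 188 and 185 CPM in STA, not called in either fit (adjusted p = 0.467 and 0.433). Pdk4, which inhibits pyruvate dehydrogenase, had 72.5, 75.1 and 74.6 CPM in EXP and 69.2, 68.04 and 69.6 CPM in STA, also not called (adjusted p = 0.623 and 0.165).

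Targets of Atf4, the factor that answers amino acid shortage, did not rise together. With 6 libraries 4 of 30 members were higher (6.81% of all genes), 5 lower (6.48%) and 21 not called, with a median of -0.06; with 5, 9 were higher (23.1% of all genes) and 12 lower (24.7%), with a median of 0.02. Atf4 itself had 215, 240.1 and 232 CPM in EXP and 243, 199.9 and 223 CPM in STA, overlapping between the groups, with a log2 fold change of -0.05 (SE 0.13, adjusted p = 0.836) and -0.11 (SE 0.05, adjusted p = 0.0420) with 5 libraries. Asns, asparagine synthetase, had 54.4, 57.1 and 60.2 CPM in EXP and 39.1, 57.9 and 61.9 CPM in STA, called in neither fit (adjusted p = 0.830 and 0.439). The 4 higher genes were Ddit3, Atf3, Nupr1 and Pycr1. Ddit3, which encodes the stress factor CHOP, had 24.2, 22.2 and 25.1 CPM in EXP and 215, 98.7 and 102 CPM in STA. It was high in all STA libraries and highest in the shallow one, with a log2 fold change of 2.49 (SE 0.32, adjusted p = 0.00461) and 2.07 with 5 libraries. Atf3, another stress-induced factor, had 2.803, 2.46 and 2.63 CPM in EXP and 19.1, 16.3 and 13.3 CPM in STA, a log2 fold change of 2.53 (SE 0.16, adjusted p = 0.00153, 5 libraries 2.52). The 5 lower genes were Shmt2, Psat1, Slc7a5, Stc2 and Atf5. Psat1, of serine synthesis, had 151, 174 and 166 CPM in EXP and 44.1, 86.8 and 97.1 CPM in STA, Slc7a5, a transporter of large neutral amino acids, 174, 184 and 185 CPM in EXP and 55.2, 105 and 106 CPM in STA, and Shmt2, a mitochondrial serine hydroxymethyltransferase, 373, 397 and 406 CPM in EXP and 94.3, 212 and 219 CPM in STA. In each the shallow library was the lowest, and the log2 fold changes were -1.06 (SE 0.26, adjusted p = 0.0368), -0.995 (SE 0.23, adjusted p = 0.0329) and -1.14 (SE 0.29, adjusted p = 0.0416) with 6 libraries and -0.83, -0.77 and -0.86 with 5.

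Among glutamine and amino acid metabolism genes, 2 of 22 were higher and 2 lower with 6 libraries (6.81% and 6.48% of all genes), and 6 higher and 8 lower with 5 (23.1% and 24.7%), with medians of -0.20 and -0.17. Slc1a5, a glutamine transporter, had 47.8, 53.4 and 51.7 CPM in EXP and 7.02, 27.6 and 26.3 CPM in STA, and Got1, the cytosolic aspartate aminotransferase, 80.1, 83.3 and 81.4 CPM in EXP and 23.1, 40.4 and 45.7 CPM in STA. Both fell, with log2 fold changes of -1.13 (SE 0.30, adjusted p = 0.0487, 5 libraries -0.90) and -1.09 (SE 0.22, adjusted p = 0.0188, 5 libraries -0.93). Slc1a4, a transporter of alanine and serine, had 17.7, 16.4 and 17.997 CPM in EXP and 15.04, 34.5 and 37.01 CPM in STA, and Glud1, glutamate dehydrogenase, 169, 176 and 165 CPM in EXP and 222, 235 and 239.6 CPM in STA. These rose, by 0.90 (SE 0.21, adjusted p = 0.0328, 5 libraries 1.04) and 0.45 (SE 0.12, adjusted p = 0.0440, 5 libraries 0.49) on the log2 scale, although for Slc1a4 the shallow library lay below every EXP library. Glul, glutamine synthetase, had 81.2, 79.1 and 75.5 CPM in EXP and 90.3, 86.7 and 83.4 CPM in STA and was called in neither fit.

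Some chaperones of the endoplasmic reticulum and genes of the unfolded protein response were higher. With 6 libraries 8 of 30 were called, all higher (6.81% of all genes), and 22 were not, with a median of 0.45, and 3, 0 and 2 were called without EXP replicate 1, 2 or 3 and 3 and 5 without STA replicate 2 or 3. With 5 libraries 21 were higher (23.1% of all genes) and 2, Ssr1 and Canx, lower (24.7%), with a median of 0.50. Hspa5, the chaperone BiP, had 2320.5, 2140.1 and 2195 CPM in EXP and 5274, 5995 and 5195 CPM in STA. The STA libraries were close together and more than 2-fold above EXP, with a log2 fold change of 1.31 (SE 0.10, adjusted p = 0.00228) and 1.34 with 5 libraries. Herpud1, of ER-associated degradation, had 42.7, 41.5 and 37.3 CPM in EXP and 96.3, 114 and 103 CPM in STA, and Edem1, of the same pathway, 53.3, 53.5 and 49.7 CPM in EXP and 100.3, 104 and 104 CPM in STA. Their log2 fold changes were 1.37 (SE 0.14, adjusted p = 0.00300, 5 libraries 1.44) and 0.98 (SE 0.12, adjusted p = 0.00456, 5 libraries 1.003). Hsp90b1, the chaperone Grp94, had 4922, 4476 and 4692 CPM in EXP and 11975, 7116 and 6454 CPM in STA, highest in the shallow library, at 0.86 (SE 0.22, adjusted p = 0.0448) with 6 libraries and 0.54 with 5. Xbp1, a transcription factor of the response, had 62.8, 59.3 and 62.2 CPM in EXP and 71.2, 94.9 and 83.8 CPM in STA, at 0.46 (SE 0.15, adjusted p = 0.0835) with 6 libraries and 0.56 (SE 0.06, adjusted p = 4.34e-14) with 5. Of 17 cytosolic heat shock chaperones, 2, Hspa8 and Ahsa1, were lower with 6 libraries (6.48% of all genes). With 5, 10 were lower (24.7% of all genes) and 3, Hspb1, Bag3 and Hspb8, higher (23.1%). The medians were -0.18 and -0.41. Hspa8, the constitutive Hsc70, had 1601, 1705 and 1658 CPM in EXP and 839.5, 908 and 1110.1 CPM in STA, and its log2 fold change was -0.80 (SE 0.13, adjusted p = 0.0101, 5 libraries -0.71); that of Ahsa1, an Hsp90 activator, was -0.83 (SE 0.12, adjusted p = 0.00687, 5 libraries -0.78). The list summed to 7165, 7154 and 7199 CPM in EXP and 7211, 4861 and 4984 CPM in STA, so only STA replicates 2 and 3 were below EXP. When the shallow library was kept, 0, 0 and 0 members were called lower without EXP replicate 1, 2 or 3 and 0 and 2 without STA replicate 2 or 3.

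**Figure D3:**
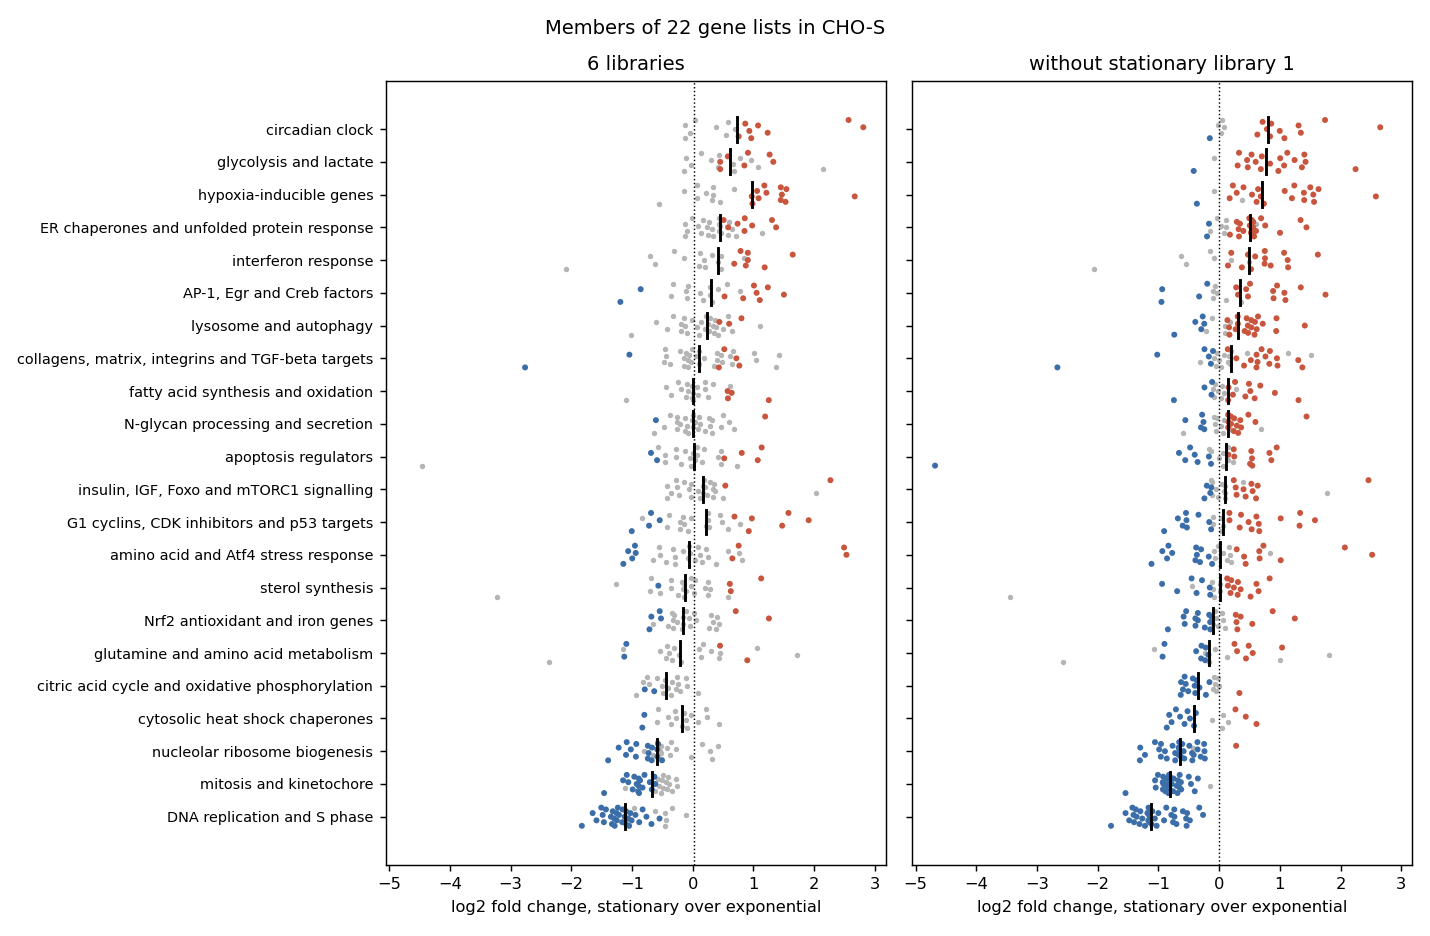
Each point is 1 member of 1 of 22 gene lists, placed by its log2 fold change of STA over EXP with 6 libraries (left) and without STA 1 (right); red and blue points were called higher and lower, grey ones were not called, and black bars are list medians. The DNA replication list lies lowest, with medians of -1.11 and -1.13, and the dotted line is the median of all genes tested.

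In sterol synthesis 3 of 26 members were higher and 1 lower with 6 libraries (6.81% and 6.48% of all genes), and 12 higher and 7 lower with 5 (23.1% and 24.7%), with medians of -0.12 and 0.02. Insig1, which restrains sterol synthesis, had 213, 204 and 191 CPM in EXP and 619, 369 and 349 CPM in STA, and Hmgcs1, an early enzyme of the pathway, 956, 878 and 816 CPM in EXP and 1361, 1444 and 1246 CPM in STA. Both rose in all STA libraries, with log2 fold changes of 1.13 (SE 0.23, adjusted p = 0.0205, 5 libraries 0.83) and 0.61 (SE 0.12, adjusted p = 0.0158, 5 libraries 0.62). The others called were Msmo1, higher, and Nsdhl, lower. Srebf2, the main activator of the pathway, had 325, 321 and 304 CPM in EXP and 178, 367 and 379.8 CPM in STA. Only the shallow library lay below EXP, and Srebf2 was not called with 6 libraries (adjusted p = 0.958) and was higher with 5, at 0.24 (SE 0.04, adjusted p = 9.73e-07). Fatty acid genes gave 4 of 23 higher, Angptl4, Ppara, Acadvl and Pparg, with 6 libraries (6.81% of all genes), and 11 higher and 4, Fasn, Acaca, Hadhb and Elovl5, lower with 5 (23.1% and 24.7%), with medians of 0.01 and 0.15. Pparg, a nuclear receptor of lipid storage, had 260.4, 268 and 268 CPM in EXP and 443, 348 and 399 CPM in STA, and a log2 fold change of 0.58 (SE 0.13, adjusted p = 0.0297, 5 libraries 0.49). Fasn, fatty acid synthase, had 879, 918 and 916 CPM in EXP and 184, 529 and 546 CPM in STA: all STA libraries were below EXP, but the spread within STA left it uncalled with 6 libraries, at -1.10 (SE 0.36, adjusted p = 0.0895), and called with 5, at -0.74 (SE 0.04, adjusted p = 9.03e-30).

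Lysosome and autophagy genes were mostly a 5-library result: 20 of 30 were higher (23.1% of all genes) and 5, Atg9a, Atg2a, Gpnmb, Becn1 and Tfe3, lower (24.7%) there, against 3 higher, Wipi1, Lamp2 and Ctsa, with 6 (6.81%), and the medians were 0.31 and 0.23. Lamp2, a lysosomal membrane protein, had 127, 125 and 119.98 CPM in EXP and 195, 184 and 185 CPM in STA, and Ctsa, cathepsin A, 909, 889 and 869.6 CPM in EXP and 1061, 1270.1 and 1286 CPM in STA. All STA values were above EXP, with log2 fold changes of 0.60 (SE 0.12, adjusted p = 0.0178, 5 libraries 0.58) and 0.44 (SE 0.12, adjusted p = 0.0461, 5 libraries 0.53). Ctsd, cathepsin D, had 331, 331 and 326 CPM in EXP and 126, 453 and 444 CPM in STA, low in the shallow library alone, at 0.07 (SE 0.41, adjusted p = 0.940) with 6 libraries and 0.45 (SE 0.04, adjusted p = 9.88e-17) with 5. Of Nrf2 targets and iron genes, 2 of 27 were higher and 4 lower with 6 libraries (6.81% and 6.48% of all genes), and 7 higher and 13 lower with 5 (23.1% and 24.7%), with medians of -0.16 and -0.10. Fth1, the ferritin heavy chain, had 4482, 4002 and 4030.3 CPM in EXP and 10184, 9816 and 9897 CPM in STA. It more than doubled in every STA library, with a log2 fold change of 1.26 (SE 0.09, adjusted p = 0.00193, 5 libraries 1.25), while Gclc and Gclm, the subunits of the rate-limiting enzyme of glutathione synthesis, fell by 0.71 and 0.54 on the log2 scale (adjusted p = 0.0269 and 0.0299), with -0.84 and -0.57 as their log2 fold changes with 5 libraries. Gclc had 116, 116 and 116 CPM in EXP and 87.3, 63.3 and 65.8 CPM in STA. The others called were Srxn1, higher, and Gsr and Sod1, lower. Hmox1, haem oxygenase, had 1895, 1871 and 1786 CPM in EXP and 1459, 2737 and 2646 CPM in STA, not called with 6 libraries (adjusted p = 0.416) and at 0.55 (SE 0.04, adjusted p = 6.16e-24) with 5.

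In insulin, Foxo and mTORC1 signalling, 2 of 26 members were higher with 6 libraries (6.81% of all genes) and 10 higher and 4, Mtor, Akt1, Rptor and Errfi1, lower with 5 (23.1% and 24.7%), with medians of 0.18 and 0.10. The 2 were Irs1, an adaptor of the insulin receptor, and Txnip, a thioredoxin-binding protein that limits glucose uptake. Txnip had 92.3, 87.7 and 83.5 CPM in EXP and 308, 527 and 431 CPM in STA. Its STA values were at least 3-fold above EXP, with a log2 fold change of 2.27 (SE 0.21, adjusted p = 0.00287) and 2.46 with 5 libraries. Of the AP-1, Egr and Creb factors, 7 of 22 were higher and 2 lower with 6 libraries (6.81% and 6.48% of all genes) and 12 higher and 4 lower with 5 (23.1% and 24.7%), with medians of 0.30 and 0.34. Fosl2, an AP-1 subunit, had 27.1, 26.8 and 26.7 CPM in EXP and 40.1, 92.8 and 86.5 CPM in STA, and Jun, its partner, 25.4, 21.9 and 22.5 CPM in EXP and 62.2, 48.7 and 39.6 CPM in STA. Both were higher in all STA libraries, with log2 fold changes of 1.503 (SE 0.27, adjusted p = 0.0138, 5 libraries 1.75) and 1.05 (SE 0.18, adjusted p = 0.0112, 5 libraries 0.95). Ier3, an immediate early gene, had 683, 549.6 and 569 CPM in EXP and 161, 333 and 288 CPM in STA and fell, with a log2 fold change of -1.19 (SE 0.26, adjusted p = 0.0247, 5 libraries -0.94); Egr1 was the other lower member, and with 5 libraries Crtc2 and Dusp6 joined them. Fos had 3.69, 3.098 and 1.61 CPM in EXP and 1.003, 4.101 and 2.74 CPM in STA, low and overlapping, with an adjusted p of 0.664.

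Apoptosis regulators did not move as a group: 4 of 26 were higher and 2 lower with 6 libraries (6.81% and 6.48% of all genes), 10 higher and 8 lower with 5 (23.1% and 24.7%), with medians of 0.02 and 0.11. The higher ones were the death receptor Fas, the caspase inhibitors Xiap and Cflar, and Bcl2l11, the BH3-only protein Bim. Fas had 26.8, 22.4 and 26.7 CPM in EXP and 85.3, 44.8 and 47.3 CPM in STA, and Xiap 24.9, 23.4 and 27.4 CPM in EXP and 68.2, 49.3 and 47.3 CPM in STA. STA lay above EXP throughout, with log2 fold changes of 1.14 (SE 0.25, adjusted p = 0.0262, 5 libraries 0.86) and 1.07 (SE 0.17, adjusted p = 0.00904, 5 libraries 0.95). The lower ones were Casp2 and Aifm1, a mitochondrial flavoprotein at 243, 261 and 249.6 CPM in EXP and 150.4, 153 and 164 CPM in STA. Bbc3, the p53 target Puma, stood at 2.803, 2.78 and 2.63 CPM in EXP and 1.003, 4.38 and 3.26 CPM in STA (adjusted p = 0.264, and 0.0343 with 5 libraries). Of interferon response genes, 7 of 21 were called with 6 libraries, all higher (6.81% of all genes), and 14 with 5, all higher (23.1%), with medians of 0.42 and 0.49. Without EXP replicate 1, 2 or 3, the shallow library kept, 2, 0 and 2 were called, and 2 without STA replicate 2 and also without STA replicate 3. Usp18, which damps interferon signalling, had 11.96, 11.4 and 11.7 CPM in EXP and 37.1, 32.4 and 41.2 CPM in STA, and Ifit2, an antiviral gene, 12.3, 15.3 and 16.1 CPM in EXP and 40.1, 31.2 and 32.4 CPM in STA. The groups did not overlap, and the log2 fold changes were 1.65 (SE 0.13, adjusted p = 0.00228, 5 libraries 1.63) and 1.19 (SE 0.14, adjusted p = 0.00423, 5 libraries 1.14). Isg15, a ubiquitin-like modifier, had 91.96, 108 and 114 CPM in EXP and 127, 225 and 229.99 CPM in STA, at 0.91 (SE 0.23, adjusted p = 0.0431, 5 libraries 1.13), and Irf7, a transcription factor of the response, 15.999, 20.5 and 18.1 CPM in EXP and 11.03, 27.3 and 26.97 CPM in STA, not called with 6 libraries (adjusted p = 0.186).

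For collagens, matrix, integrins and TGF-beta targets, 4 of 35 members were higher and 2 lower with 6 libraries (6.81% and 6.48% of all genes), and 15 higher and 6 lower with 5 (23.1% and 24.7%), with medians of 0.11 and 0.20. The lower ones were Ctgf, described above, and Thbs1, thrombospondin, at 163, 169.6 and 162 CPM in EXP and 76.2, 77.5 and 85.3 CPM in STA. Thbs1 was about halved in each STA library, with a log2 fold change of -1.04 (SE 0.12, adjusted p = 0.00419, 5 libraries -1.02). Sparc, Fn1 and Timp2 were among the higher ones. Sparc, a matrix glycoprotein, had 755, 699 and 692 CPM in EXP and 1006, 1292 and 1234 CPM in STA, and Fn1, fibronectin, 1759, 1866 and 1809 CPM in EXP and 2203, 2708 and 2888 CPM in STA. Both rose in all STA libraries, by 0.72 (SE 0.13, adjusted p = 0.0136, 5 libraries 0.83) and 0.52 (SE 0.12, adjusted p = 0.0328, 5 libraries 0.63) on the log2 scale. N-glycan processing and secretion genes showed 1 of 29 higher and 1 lower with 6 libraries (6.81% and 6.48% of all genes), and 14 higher and 5, Mgat2, Sec13, Fut8, Uggt1 and Sec24d, lower with 5 (23.1% and 24.7%), with medians of 0.002 and 0.15. The 1 higher was St3gal3, a sialyltransferase, at 22.7, 23.9 and 21.7 CPM in EXP and 24.1, 64.8 and 56.6 CPM in STA, and the 1 lower Mgat2, which starts the second antenna of complex glycans, at 52.4, 52.6 and 55.1 CPM in EXP and 31.1, 35.6 and 36.9 CPM in STA. Their log2 fold changes were 1.19 (SE 0.28, adjusted p = 0.0312, 5 libraries 1.44) and -0.61 (SE 0.13, adjusted p = 0.0239, 5 libraries -0.56), and for St3gal3 the shallow library lay barely above the EXP values.

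Clock genes were higher in part. With 6 libraries 8 of 16 were called, all higher (6.81% of all genes), with a median of 0.72; with 5, 11 were higher (23.1% of all genes) and 1, Nr1d2, lower (24.7%), with a median of 0.81. Dbp, a clock output factor, had 1.44, 1.83 and 1.83 CPM in EXP and 5.02, 12.02 and 8.34 CPM in STA. It was low in EXP and higher in each STA library, with a log2 fold change of 2.57 (SE 0.26, adjusted p = 0.00300, 5 libraries 2.65). Per1, a core repressor, had 14.97, 12.2 and 14.8 CPM in EXP and 23.1, 39.96 and 28.9 CPM in STA, and Bhlhe40, another repressor, 64.3, 51.9 and 58.5 CPM in EXP and 77.2, 156 and 129 CPM in STA. Their log2 fold changes were 1.24 (SE 0.18, adjusted p = 0.00759, 5 libraries 1.35) and 1.08 (SE 0.25, adjusted p = 0.0295, 5 libraries 1.31). Bhlhe41, its close relative, had 19.9, 15.7 and 15.2 CPM in EXP and 269, 57.5 and 55.6 CPM in STA. All STA libraries were above EXP, but the shallow library set the size: the log2 fold change was 2.81 (SE 0.63, adjusted p = 0.0277) with it and 1.74 without. Per2, Per3, Nr1d1 and Tef were the others called. Arntl and Clock, the activators of the loop, had 22.02, 19.3 and 21.7 CPM in EXP and 22.1, 21.5 and 21.8 CPM in STA for Arntl and 141, 127 and 126 CPM in EXP and 253, 131 and 138 CPM in STA for Clock, and neither was called in either fit. With the shallow library kept, 1, 0 and 1 members were called without EXP replicate 1, 2 or 3, and 1 and 4 without STA replicate 2 or 3.

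Whether CHO-S changed between phases as the producer lines did was tested as a difference of phase changes in 1 fit of all 6 groups. Whether the 3 lines were at an equal culture stage was not tested. The difference between CHO-S and A0 passed the threshold in 3139 of 21358 genes (14.7%), and that between CHO-S and A1 in 1172 (5.49%). Without the shallow library 4141 of 21357 genes differed from A0 and 2311 from A1. In 856 of the 21358 genes CHO-S differed from both lines with the same sign, and in 518 of those the CHO-S change was the more positive. These comparisons share the CHO-S libraries. Every single-gene difference given below with an adjusted p under 0.05 also passed without the shallow library, with the same sign. For the difference from A1, 816, 685 and 705 genes were called without EXP replicate 1, 2 or 3 and 917 and 1031 without STA replicate 2 or 3; 794 were called without the first exponential A1 library.

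Most targets of Atf4 differed from each line. Of the list's 30 members, 24 differed from A0 (14.7% of all genes) and 17 from A1 (5.49%), all with the more negative change in CHO-S. These counts were 24 and 18 without the shallow library, against 4141 and 2311 of the 21357 genes tested. The median phase change of the list was 1.28 in A0 and 0.74 in A1, against -0.05 in CHO-S in the same fit. For Atf4 itself the phase change was 1.31 in A0 and 1.15 in A1, and the CHO-S change differed by -1.37 (SE 0.22, adjusted p = 7.37e-05) and -1.21 (SE 0.23, adjusted p = 0.00196). Trib3, a pseudokinase target of Atf4, rose in all 3 lines in this fit, by 0.84 in CHO-S, 3.85 in A0 and 2.26 in A1. Its CHO-S change differed by -3.01 (SE 0.25, adjusted p = 6.66e-09) from A0 and -1.43 (SE 0.26, adjusted p = 0.00122) from A1. Among the CHO-S fits Trib3 was called only with 5 libraries, at 1.02 (SE 0.08, adjusted p = 1.14e-19). Psat1 differed by -1.70 (SE 0.23, adjusted p = 8.49e-06) and -1.32 (SE 0.24, adjusted p = 0.00140). Ddit3 differed from A0, at -1.31 (SE 0.28, adjusted p = 0.00184), while its difference from A1, 0.12, was not past the threshold.

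Glycolysis differed the other way. Of 20 members, 11 differed from A0 (14.7% of all genes) and 9 from A1 (5.49%), all with the more positive change in CHO-S. The counts were 13 and 14 without the shallow library, against 4141 and 2311 of the 21357 genes tested. Slc16a1, against A0, was then the only negative one. The list's median phase change was -0.06 in A0 and -0.26 in A1, against 0.63 in CHO-S. Ldha changed by -0.76 in A0 and -0.51 in A1, so that CHO-S differed by 1.67 (SE 0.17, adjusted p = 1.01e-07) and 1.42 (SE 0.18, adjusted p = 1.75e-05). Gapdh differed by 1.42 (SE 0.20, adjusted p = 1.67e-05) and 1.05 (SE 0.22, adjusted p = 0.00341). Of 22 hypoxia-inducible genes, 13 differed from A0 (14.7% of all genes) and 12 from A1 (5.49%), with 10 and 8 of them more positive in CHO-S. The rest were Vegfa, Ddit4 and Hilpda, and in A1 also Plin2. Egln1 differed by 1.97 (SE 0.19, adjusted p = 8.28e-08) and 1.58 (SE 0.21, adjusted p = 2.96e-05), whereas Vegfa was among those more negative in CHO-S, at -0.91 (SE 0.16, adjusted p = 2.80e-04) and -0.91 (SE 0.18, adjusted p = 0.00197). Among ribosome biogenesis genes 15 of 32 differed from A0 (14.7% of all genes), all but Nop14 more negative, and 9 from A1 (5.49%), all more negative. Without the shallow library 19 differed from A0, all but 1 more negative, and 14 from A1, all more negative. Over all 21357 genes tested, 4141 and 2311 differed in that fit. Rrp12 differed by -1.16 (SE 0.15, adjusted p = 6.04e-06) and -1.06 (SE 0.16, adjusted p = 1.87e-04). DNA replication genes differed from A0 in both directions, with 7 of 11 called (14.7% of all genes) more positive in CHO-S and Gins3, Pold1, Prim1 and Pola1 more negative, and from A1 in 13 of 38 (5.49% of all genes), all more negative.

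Cyclin D1 took opposite directions. Ccnd1 changed by -1.27 in A0, -0.82 in A1 and 0.49 (SE 0.12, adjusted p = 0.00369) in CHO-S in the fit of 6 groups. The CHO-S change differed by 1.76 (SE 0.16, adjusted p = 2.03e-08) and 1.31 (SE 0.17, adjusted p = 2.13e-05). In the 6-library fit of CHO-S alone, the change of Ccnd1 was not past the threshold. Thbs1 changed by 0.70 and 0.91 in the producer lines and fell in CHO-S, with differences of -1.74 (SE 0.20, adjusted p = 1.03e-06) and -1.96 (SE 0.22, adjusted p = 2.87e-06). Slc1a5, the glutamine transporter, differed by -2.29 (SE 0.22, adjusted p = 8.28e-08) from A0 and -1.42 (SE 0.24, adjusted p = 5.27e-04) from A1. For ER chaperones 12 of 30 differed from A0 (14.7% of all genes), of which Edem1, Derl3 and Sec61b were more positive and 9 more negative in CHO-S, and 3 from A1 (5.49% of all genes), Calr, Edem1 and Pdia3, all more positive. Without the shallow library 17 differed from A0, 4 of them more positive, and 7 from A1, 6 of them more positive. Over all 21357 genes tested, 4141 and 2311 differed in that fit. Hspa5 differed from A0 by -1.38 (SE 0.20, adjusted p = 2.79e-05) and from A1 by 0.34 (SE 0.22, adjusted p = 0.465), a difference not past the threshold. Of 21 interferon genes 4 differed from A0 (14.7% of all genes), among them Usp18, Irf9 and Bst2, and Usp18 alone from A1 (5.49% of all genes). Without the shallow library, 5 differed from A0, 4 of them more positive in CHO-S, and 4 from A1, all more positive. These counts stand beside 4141 and 2311 of all 21357 genes tested.

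**Figure D4:**
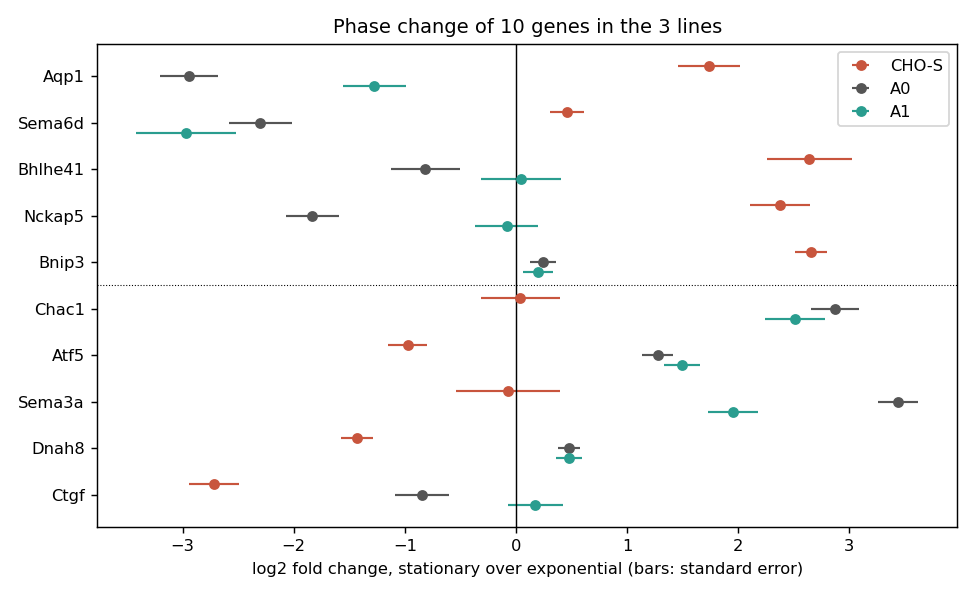
Points give the log2 fold change of STA over EXP in CHO-S (red), A0 (grey) and A1 (green) with standard errors, for the 5 genes with the most positive and the 5 with the most negative difference of CHO-S from both lines. Bnip3 stood at 2.66 in CHO-S against 0.24 in A0 and 0.20 in A1, and Atf5 at -0.98 against 1.28 and 1.498.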

How the data were processed

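The authors aligned reads of stranded mRNA libraries with STAR 2.5.4b, counted them per gene with HTSeq 0.7.2 and deposited the counts without normalization: 28037 genes, 24 libraries and 5 summary lines, which were dropped. Strand setting is not stated, so overlapping genes are uncertain, and reads aligned to more than 1 place were not counted. The 6 CHO-S libraries were fitted with edgeR 4.0.16 (R 4.3.3; TMM, quasi-likelihood test, two-sided, Benjamini-Hochberg adjusted p under 0.05) on genes with at least 1 count in 2 libraries and a variance above 0, with and without the shallow library. Differences between lines came from 1 fit of 6 groups, with A0 libraries of the same replicate number, some titled RLT or Duplicate, summed. The labels do not say that these share a culture. With the first A0 libraries only, 3381 and 1289 genes differed from A0 and A1. CPM are TMM-normalised.

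Named were the 10 largest rises and falls called in both fits without overlap and with a mean of at least 5 CPM; list anchors and up to 4 further called members per list; and the 5 most positive and negative differences from both lines. Other names were chosen after their values were seen. Members and lists were chosen with earlier results of these data known. Of 656 members in 22 lists, 600 were in the table. Slc43a1, Abcg1 and Bik had 0 counts in STA; without them their lists' medians were -0.19, -0.11 and 0.04 with 6 libraries. Alternatives used DESeq2 1.42.0, limma 3.58.1, other size factors and filters, a replicate block, and 1 library left out. Promoters and proteins were not analysed here, and some list members are not reported here.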

Additional observations from a re-analysis of the deposited data

Results flagged for a closer look

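In 10 genes the phase change of CHO-S differed from that of A0 and from that of A1 with the same sign, by a test of the difference itself. Of 856 such genes, these were the 5 most positive and the 5 most negative, ranked by the smaller of the 2 differences, among named genes with a mean of at least 5 CPM over the libraries of the 3 lines. Aqp1, a water channel, stood at 45.9, 44.3 and 41.04 CPM in EXP and 61.2, 182 and 170.3 CPM in STA, with the shallow library the lowest of STA, and its change lay above that of A0 by 4.69 (SE 0.38, adjusted p = 6.29e-09) and of A1 by 3.02 (SE 0.40, adjusted p = 2.96e-05). Sema6d, a semaphorin, had 36.6, 29.2 and 33.1 CPM in EXP and 36.1, 50.5 and 44.4 CPM in STA and differed by 2.76 (SE 0.33, adjusted p = 1.31e-06) and 3.43 (SE 0.47, adjusted p = 5.19e-05); it fell in both producer lines, by 2.30 and 2.97 on the log2 scale. Bhlhe41, a clock repressor, differed by 3.46 (SE 0.49, adjusted p = 1.54e-05) and 2.60 (SE 0.52, adjusted p = 0.00276). Without the shallow library, which was highest in this gene, the differences were 2.55 and 1.70. Nckap5 had 2.19, 3.26 and 3.44 CPM in EXP and 27.1, 12.5 and 14.6 CPM in STA and differed by 4.21 (SE 0.36, adjusted p = 1.12e-08) and 2.46 (SE 0.39, adjusted p = 2.93e-04). Bnip3, the mitophagy receptor, differed by 2.41 (SE 0.18, adjusted p = 1.69e-09) and 2.46 (SE 0.20, adjusted p = 2.33e-08).

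The other 5 genes had the more negative change in CHO-S. Chac1 and Sema3a stayed below 5 CPM in every CHO-S library and passed that limit through the producer lines, so their differences rest on changes in A0 and A1. Chac1, a glutathione-degrading enzyme and Atf4 target, had 2.39, 2.304 and 2.19 CPM in EXP and 0, 2.36 and 2.74 CPM in STA and differed by -2.84 (SE 0.41, adjusted p = 2.59e-05) and -2.47 (SE 0.45, adjusted p = 0.00114). It rose by 2.87 in A0 and 2.51 in A1, and was called in neither CHO-S fit. Atf5, a factor related to Atf4, had 89.9, 105 and 97.9 CPM in EXP and 68.2, 44.3 and 45.6 CPM in STA and differed by -2.25 (SE 0.22, adjusted p = 9.11e-08) and -2.47 (SE 0.24, adjusted p = 4.31e-07). Sema3a, a secreted semaphorin, had 1.504, 0.953 and 1.46 CPM in EXP and 0, 1.32 and 1.303 CPM in STA, too few counts to show a change in CHO-S, and differed by -3.52 (SE 0.49, adjusted p = 1.47e-05) and -2.03 (SE 0.51, adjusted p = 0.0190). Dnah8, a dynein heavy chain, had 31.3, 30.2 and 33.4 CPM in EXP and 14.04, 10.9 and 12.1 CPM in STA and differed by -1.91 (SE 0.17, adjusted p = 3.08e-08) and -1.91 (SE 0.18, adjusted p = 4.58e-07). Ctgf differed by -1.87 (SE 0.34, adjusted p = 2.91e-04) and -2.89 (SE 0.33, adjusted p = 5.49e-06). All 20 differences also passed the threshold without the shallow library. Their causes were not tested, and line and culture stage cannot be told apart.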

How the results depend on the processing

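Of 155 named genes, 142 kept their direction in all 14 alternatives to the 6-library fit. Called with the opposite sign were Myc (LOC100773301), at 0.25 with limma-voom sample weights and -0.23 to 0.28 with 1 library left out, Srebf2 at 0.22 and -0.20 to 0.24, Mgat1 at 0.23 and -0.21 to 0.25, and St3gal4 at -0.28 to 0.15 with 1 library left out. The highest of each range was without STA replicate 1, whose weight was 0.0999 against 1.33 to 1.84. Against 2308 calls, sample weights gave 8104, 6 groups in 1 fit 4107 and leaving out 1 library 0 to 8269; DESeq2, limma-voom, other size factors, filterByExpr and no filter gave 2187 to 2727. The 5-library count of 8269 was 5247 with 6 groups in 1 fit, 6351 to 7853 with 1 more library left out, where a lone STA library is assumed to vary like EXP, and 6315 with DESeq2. The difference from A0 (3139) was 2344 to 4141 with 1 library left out and 2159 with CHO-S and A0 alone; that from A1 (1172) was 1780 with DESeq2, 1495 with CHO-S and A1 alone and 685 to 2311 with 1 library left out. DESeq2 shifted the median difference of all genes by 0.155 for A0 and 0.119 for A1. Causes were not tested.

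With a replicate block, which pairs libraries of the same number, 350 genes were called with 6 libraries, 7551 with 5, and 3352 and 1282 for the differences. Residuals of same-number pairs correlated by 0.12, 0.13 and -0.02, and those of other pairs by -0.16 to 0.17. These values show no pairing of cultures by number, but so few pairs cannot exclude it.

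The shallow depth limits low genes: a gene at 3 CPM has about 3 counts there.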

Other observations

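Further gene groups, 5 in number, were listed after the values were seen, so their counts describe and test nothing. Proteasome subunits were lower: 14 of 29 with 6 libraries (6.48% of all genes) and 29 with 5 (24.7%), with medians of -0.64 and -0.56. Psmc5, an ATPase of the regulatory particle, had 210.2, 206 and 205 CPM in EXP and 68.2, 96.3 and 98.5 CPM in STA, a log2 fold change of -1.22 (SE 0.16, adjusted p = 0.00543, 5 libraries -1.08). Psma3 had 267, 264 and 271 CPM in EXP and 710.1, 158 and 165 CPM in STA, with the shallow library far above the other 5. Enzymes of purine and pyrimidine synthesis were lower in 10 of 17 with 6 libraries (6.48% of all genes) and in 17 with 5 (24.7%), with medians of -0.66 in both. Mthfd1, which supplies one-carbon units, had 232, 232 and 232 CPM in EXP and 74.2, 93.1 and 101 CPM in STA, a log2 fold change of -1.36 (SE 0.15, adjusted p = 0.00330, 5 libraries -1.26), and Paics 172, 167 and 174 CPM in EXP and 92.3, 90.3 and 93.2 CPM in STA. The groups did not overlap in either. Tubulins were lower in 5 of 9 with 6 libraries (6.48% of all genes), Tubb, Tubb4a, Tuba1b, Tubb6 and Tuba1c, and in 7 with 5 (24.7%). Tubb had 1569.7, 1534 and 1535 CPM in EXP and 443, 809.7 and 827 CPM in STA, with a log2 fold change of -1.15 (SE 0.23, adjusted p = 0.0188, 5 libraries -0.91).

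Splicing factors of the SR and hnRNP families showed the split of the shallow library most plainly: 5 of 28, Hnrnpab, Hnrnpa1, Srsf3, Srsf6 and Srsf7, were lower with 6 libraries (6.48% of all genes) and 26 with 5 (24.7%). Their summed level was 11608, 11439 and 11695 CPM in EXP, 14650.0 CPM in the shallow library and 7636 and 7573 CPM in STA replicates 2 and 3. Hnrnpab fell in all 3, at 304, 317 and 332 CPM in EXP and 91.3, 151 and 150.5 CPM in STA, while Hnrnpr had 347, 346 and 356 CPM in EXP and 959, 199 and 199.8 CPM in STA. Cytosolic aminoacyl-tRNA synthetases were lower in 4 of 20 with 6 libraries (6.48% of all genes), Iars, Kars, Hars and Gars, and 16 were lower and 2, Dars and Sars, higher with 5 (24.7% and 23.1%). Of the 20, 17 differed from A0 (14.7% of all genes), all but Dars more negative in CHO-S, and 12 from A1 (5.49%), all more negative. Iars, which charges isoleucine tRNA, had 159, 183 and 185 CPM in EXP and 81.2, 97.1 and 109 CPM in STA and changed by 0.87 in A0 and 0.26 in A1.

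Across 10588 genes with a mean of at least 5 CPM over the 3 lines, Pearson's r between the phase change of CHO-S and that of A0 was 0.367, and with that of A1 0.351, given as a description of separate libraries. Without the shallow library these were 0.418 and 0.356.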
